A study of Mus musculus with 10 samples.

Results

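The genes described here encode the potassium, sodium and pacemaker channels of the mouse heart. They are the protein-coding genes whose GENCODE symbol starts with Kcn, is Scn followed by a number and a or b, or is Hcn followed by a number from 1 to 4. The rule, which used no measured value, gave 112 of the 56748 genes in the files. Of these, 67 passed the filter on low counts and were tested among 15454 genes, 45 were not tested, and 9 of those 45 had 0 counts in every heart, which over 353975157 counts allows a level of up to 0.00848 CPM (counts scaled to a common library size; the limit stands for 3 counts and covers counting error only). RNA-seq was done on whole hearts, both atria included, of wild-type male C57BL/6 mice bought at 8 weeks of age. In the training group, 5 mice ran on a treadmill at 15 m/min for 120 min a day, 5 days a week, for 8 weeks after acclimatisation, and the 5 sedentary mice did not train. Each library was 1 mouse, and no allele or drug separated the groups. The question was which channel transcripts differed between the trained and the sedentary heart.

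Potassium, sodium and pacemaker channels set the shape of the cardiac action potential. The fast sodium current starts the upstroke, the transient outward and delayed rectifier potassium currents repolarise the cell, the inward rectifier holds the resting potential, and the pacemaker current depolarises cells of the sinoatrial node between beats. Pore-forming subunits carry the ions, while accessory subunits change how often, how fast and where in the membrane the pores open. In the mouse, repolarisation of the ventricle depends mostly on the transient outward and the ultrarapid and slow delayed currents, while the acetylcholine-gated current belongs mainly to atrial and nodal cells.

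The potassium and pacemaker channels share a short selectivity filter, which the coding sequence shows across otherwise distant families. The stretches below come from the GRCm39 genome and the GENCODE annotation and read 5′ to 3′ on the coding strand, with the codons for glycine, an aromatic residue and glycine in capitals. They are given for the pores that the results turn on.
Kcna5 (chromosome 6, 126510702 to 126510728, reverse strand, exon 1): atgaccactgtaGGCTACGGGgacatg
Kcnj3 (chromosome 2, 55327633 to 55327659, forward strand, exon 1): gaggccaccatcGGCTATGGCtaccgc
Kcnj5 (chromosome 9, 32233849 to 32233875, reverse strand, exon 2): gaaacaaccattGGGTATGGCttcaga
Kcnj11 (chromosome 7, 45748914 to 45748940, reverse strand, exon 1): caggtgaccattGGTTTCGGCgggcgc
Kcnk3, the later of its pores (chromosome 5, 30779540 to 30779566, forward strand, exon 2): ctcaccaccatcGGCTTCGGCgactat
Each encodes glycine, tyrosine or phenylalanine, and glycine, although the codons differ between genes. A pattern for the filter (threonine, serine or cysteine, then valine, isoleucine or leucine, then glycine, then tyrosine, phenylalanine or leucine, then glycine) was found in all 81 potassium and pacemaker pore genes, in 0 of the 10 sodium pore genes and in 3 of the 21 accessory genes (Kcnab1, Kcnab2 and Kcnab3). Leucine at the second position was allowed after a narrower pattern had missed members of the Kv families. The pattern occurred in 330 of 21770 coding genes of the annotation (1.52%), and a match is a description of the sequence only.

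The sodium pores instead share the inactivation particle, the residues isoleucine, phenylalanine and methionine that close the pore from inside after it has opened. Their codons are in capitals in Scn4a, whose transcript fell.
Scn4a (chromosome 11, 106213689 to 106213709, reverse strand, exon 22): aaagacATCTTCATGacagag
These residues followed by threonine were encoded in 9 of the 10 sodium pore genes, all but Scn7a, and in 34 of the 21770 coding genes (0.156%).

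The libraries held 29461697 to 35945417 counts on genes in the training hearts and 35196993 to 39431030 in the sedentary hearts. Among markers of other cells and chambers, listed with earlier results of these data known, all 12 atrial markers had a log2 fold change above 0, 3 of them passing the test, and their summed level ran from 6322 to 8996 CPM in training and from 3822 to 8383 CPM in sedentary hearts. Sedentary heart 1 was the only sedentary heart whose score over those markers lay within the training range. In a whole heart, fewer cells of a type and less RNA per cell cannot be told apart. The 10 cardiomyocyte markers were high in every heart, with summed levels of 67752 to 72645 CPM in training and 71392 to 81231 CPM in sedentary hearts. Of these markers, 9 had a log2 fold change below 0 and 1 above 0, with a median of −0.11, and 1 passed the test (lower).

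The channel transcripts covered a wide range, and a few genes carried most of them. On the TPM scale (transcript abundance corrected for transcript length), 33 of the 112 genes had a mean of at least 1 and 14 a mean of at least 10. Kcnk3, an acid-sensitive background potassium channel, was at the top with 92.8 ± 5.21 TPM in training and 93.5 ± 2.61 TPM in sedentary hearts (SD, n = 5 each, as throughout). It was followed by Kcnip2, the accessory subunit of the transient outward channel, at 77.7 ± 5.66 and 71.3 ± 5.16 TPM, and by Kcnj11, the pore of the ATP-sensitive channel, at 67.7 ± 3.59 and 67.3 ± 2.88 TPM. Kcng2, a subunit that forms no channel by itself, stood at 46.5 ± 2.36 and 48.0 ± 2.55 TPM. The 14 genes with a mean of at least 10 TPM held 84.8% ± 0.539 of the summed channel TPM in training and 83.9% ± 0.249 in sedentary hearts. The sum over all 112 genes was 621.7 ± 29.5 TPM in training and 612.2 ± 17.2 TPM in sedentary hearts, with all 10 hearts between 577.8 and 653.8 TPM.

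**Figure D1:**
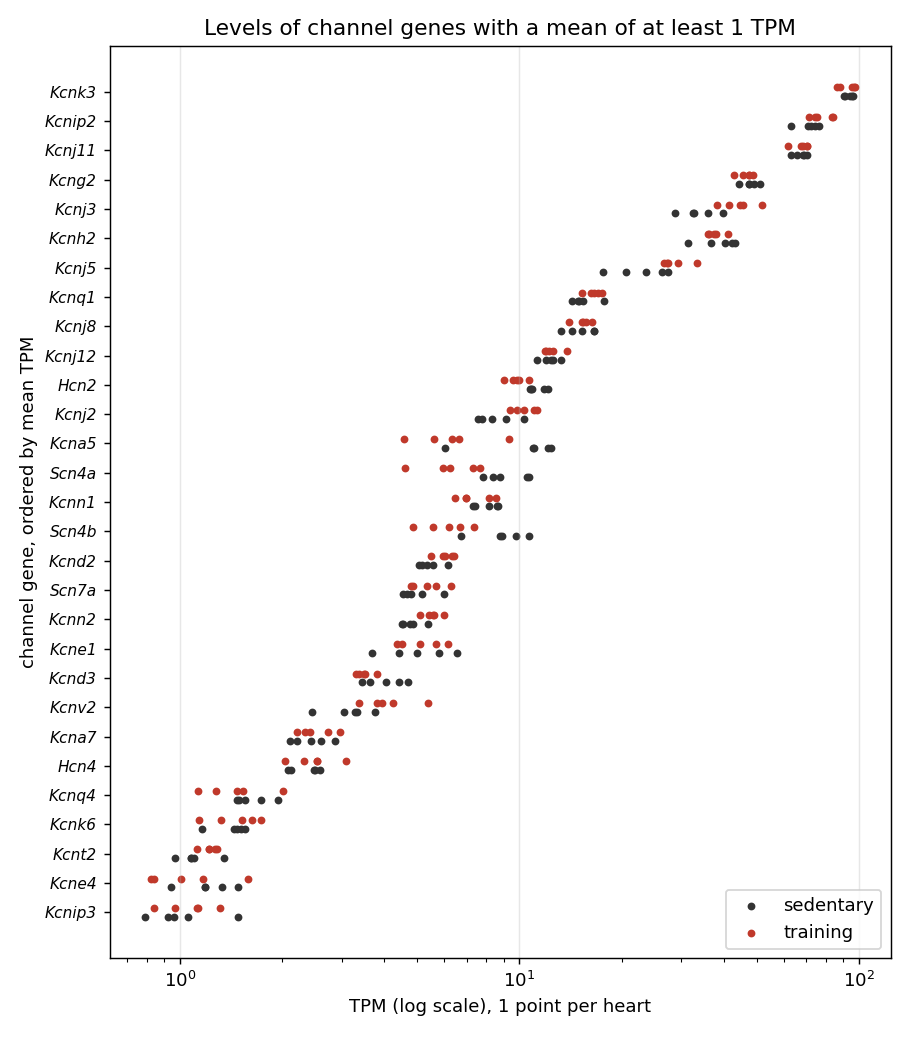
TPM of channel genes with a mean of at least 1 TPM that are reported singly, on a log axis, with 1 point per heart (dark, sedentary; red, training). The points of the groups lie close together relative to the distance between genes, and Kcnk3, Kcnip2 and Kcnj11 have the highest means.

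Comparing training with sedentary hearts, 6 channel genes passed an adjusted p below 0.1 (edgeR's quasi-likelihood test, adjusted by the Benjamini-Hochberg method across every tested gene), of which 1 rose and 5 fell. Kcnj3, a pore of the acetylcholine-gated channel, rose, and Scn4b, Scn4a, Hcn2 and Kcna5 were among those that fell. These 6 were 8.96% of the 67 tested channel genes, against 7.01% of all tested genes, 1 of 67 (1.49%) against 2.75% in the upward direction and 5 of 67 (7.46%) against 4.26% in the downward direction, so that the share of channel genes called was near that of all genes. The values of training and sedentary hearts did not overlap for 4 channel genes (5.97%), all lower in training, against 5.06% of all tested genes in either direction, 2.94% in the lower and 2.12% in the higher direction. The median log2 fold change of the tested channel genes was 0.013, with 37 above and 30 below 0, and that of all tested genes was 0.00026. Scaling by library totals alone, without the correction for composition, gave 5 higher and 4 lower channel genes in place of 1 and 5, while the calls over all genes went from 425 higher and 659 lower to 1029 higher and 339 lower and the median of all genes to 0.053. Without training heart 2 there were 11 calls (4 higher), 16.2% of the tested channel genes against 8.02% of all tested genes. Without sedentary heart 1 there were 9 (4 higher), 13.4% against 9.58%. Without training heart 1 there were 7 (2 higher), 10.4% against 6.35%, and without sedentary heart 4 also 7 (2 higher), 10.3% against 4.30%. At an unadjusted p below 0.05 there were 23 channel genes (34.3%), against 20.0% of all tested genes.

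**Figure D2:**
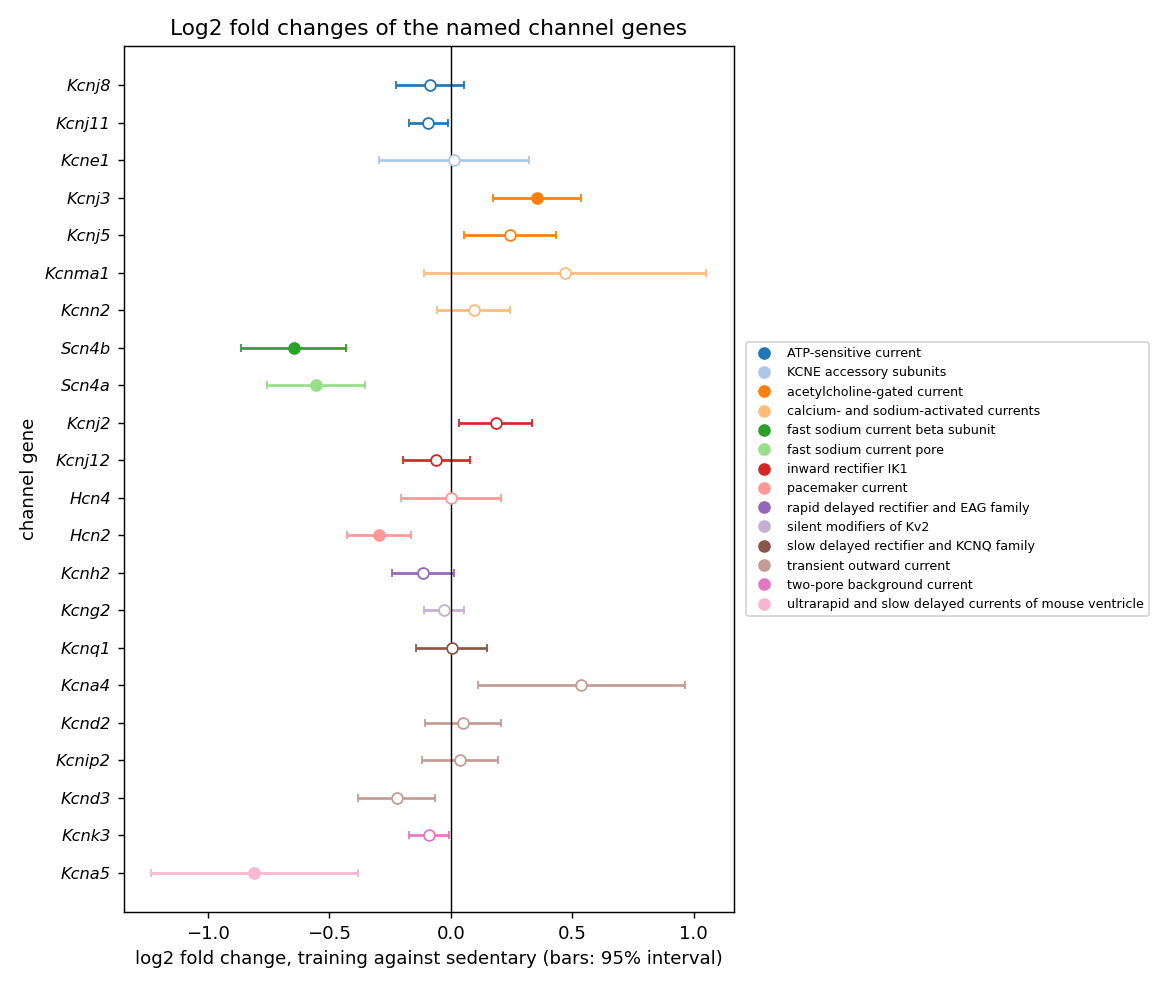
Log2 fold change of the named channel genes, training against sedentary, with 95% confidence intervals, ordered and coloured by the current they carry. Filled points passed an adjusted p below 0.1; Kcnj3 lies above 0 and Scn4b, Scn4a, Hcn2 and Kcna5 lie below 0.

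In the fast sodium current, Scn4a, a pore, and Scn4b, an accessory subunit, fell in training hearts. Of its 10 pore genes 6 were tested, 3 with a log2 fold change above and 3 below 0 (range −0.55 to 0.44), none rose and 2 fell, with 3 at an unadjusted p below 0.05. Scn4a (ENSMUSG00000001027, GRCm39 chromosome 11, 106208370 to 106256385, reverse strand), the sodium pore best known from skeletal muscle, had 6.36 ± 1.21 TPM in training and 9.23 ± 1.2997 TPM in sedentary hearts. The training hearts held 23.0, 33.3, 28.2, 27.1 and 31.6 CPM and the sedentary hearts 40.7, 36.7, 43.7, 40.3 and 48.8 CPM. The groups did not overlap, since the highest training heart was below the lowest sedentary heart. The log2 fold change was −0.55 (SE 0.0939, edgeR's adjusted p = 0.0116), so it fell by 31.9%, and it kept its call when any heart was left out (adjusted p 0.00951 to 0.0385). With a score of the 12 atrial markers as a covariate it was −0.49 (edgeR's adjusted p = 0.153). Every sedentary heart but heart 1 scored below all training hearts, so fits with this score cannot tell atrial tissue from training. The share of Scn4a in the TPM of the sodium pores was 9.21% ± 0.870 in training and 12.1% ± 1.43 in sedentary hearts. Of the 8 skeletal muscle markers on the list, 5 were tested, none rose and 2 fell (Acta1 and Ckm), and the summed level was 1841 to 2295 CPM in training and 2335 to 2664 CPM in sedentary hearts. Most of that sum was Ckm, with means of 1636 CPM in training and 1909 CPM in sedentary hearts. Acta1 followed, with means of 310 and 556 CPM. Which cells of the heart these transcripts came from was not tested. The myosins that define skeletal fibres, Myh1, Myh2 and Myh4, were at group means of 0.063 CPM or lower, and at 0.125 CPM or lower in any heart.

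Scn4b (ENSMUSG00000046480, GRCm39 chromosome 9, 45049595 to 45065452, forward strand) encodes a beta subunit that modifies the opening and the inactivation of the pore, and it fell further than Scn4a by its estimate, with a difference between them that was not tested. Its level was 23.98, 30.8, 27.8, 25.8 and 32.6 CPM in the training hearts and 49.6, 48.9, 42.9, 34.3 and 44.6 CPM in the sedentary hearts. Every training heart was below every sedentary heart. The mean went from 44.1 ± 6.16 CPM in sedentary to 28.2 ± 3.51 CPM in training hearts, so it fell by 36.1%, with a log2 fold change of −0.65 (SE 0.10, 95% confidence interval −0.86 to −0.43, edgeR's adjusted p = 0.00871). All 10 fits that left out a heart kept the call, with log2 fold changes of −0.72 to −0.59. With the atrial score as a covariate the log2 fold change was −0.58 (edgeR's adjusted p = 0.107). On the TPM scale Scn4b was at 6.13 ± 0.955 in training and 8.96 ± 1.47 in sedentary hearts, and there the groups overlapped by 1 sedentary heart, heart 4. All 4 beta subunit genes were tested, and Scn4b was the only one that passed edgeR's threshold. The share of Scn4b in the TPM of the beta subunits was 33.3% ± 4.45 in training and 40.8% ± 1.84 in sedentary hearts.

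The pacemaker channels were represented by 3 tested genes of 4, and Hcn2 fell. Hcn2 (ENSMUSG00000020331, GRCm39 chromosome 10, 79552120 to 79571948, forward strand), the pacemaker subunit of ventricular and nodal cells, made up 76.5% ± 2.69 of the Hcn TPM in training and 79.8% ± 2.08 in sedentary hearts. Training hearts measured 28.1, 31.1, 26.9, 29.3 and 27.7 CPM and sedentary hearts 31.7, 37.7, 32.9, 34.6 and 38.6 CPM. The groups did not overlap, and the gap between the highest training and the lowest sedentary heart was narrow. The log2 fold change was −0.29 (SE 0.0610, edgeR's adjusted p = 0.0232), so it fell by 18.5%, and no left-out heart removed the call. With the atrial score as a covariate, the log2 fold change of Hcn2 was −0.15 (edgeR's adjusted p = 0.418) and that of Hcn4 was −0.17 (adjusted p = 0.661). Hcn4, the main pacemaker subunit of the sinoatrial node, was at 14.3, 11.6, 14.1, 17.6 and 13.8 CPM in training and 14.2, 12.9, 14.8, 16.2 and 13.2 CPM in sedentary hearts. The Hcn4 ranges overlapped, the means were both 14.3 CPM, and the 95% confidence interval of the log2 fold change was −0.21 to 0.21 (edgeR's adjusted p = 0.999). The direct comparison with Hcn2, the ratio of their counts, did not pass (exact permutation p = 0.103, adjusted p = 0.206). The sinoatrial node is a small piece of the whole heart, so these levels are sums over all chambers.

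Among the ultrarapid and slow delayed currents of the mouse ventricle 7 of 8 genes were tested, none rose and Kcna5 fell. Kcna5 (ENSMUSG00000045534, GRCm39 chromosome 6, 126509514 to 126512375, reverse strand) forms the ultrarapid delayed rectifier, a current that is large in atrial cells. Its level was 15.8, 11.8, 15.9, 17.4 and 23.1 CPM in the training hearts and 15.8, 34.7, 29.6, 34.9 and 31.8 CPM in the sedentary hearts. Sedentary heart 1 lay inside the training range while the other 4 sedentary hearts were above every training heart. The log2 fold change was −0.81 (SE 0.20, 95% confidence interval −1.23 to −0.38, edgeR's adjusted p = 0.0432), so it fell by 42.9%, the largest fall among the called channel genes. Without sedentary heart 1 it was −0.97 (adjusted p = 0.00489). Over all 10 leave-outs the adjusted p ran from 0.00489 to 0.0996, so the call held in each. With the atrial score as a covariate, the log2 fold change was −0.45 (edgeR's adjusted p = 0.539).

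The transient outward current, the early repolarising current of mouse ventricle, had 6 tested genes of 8 and none passed in edgeR, with 2 at an unadjusted p below 0.05 and 1 called by DESeq2 (Kcnd3). Kcnip2, which brings the pore to the membrane and slows its inactivation, measured 160.5, 166, 138, 152 and 161 CPM in training and 127, 154, 144, 163 and 169 CPM in sedentary hearts. These ranges overlapped almost wholly, and the log2 fold change was 0.04 (95% confidence interval −0.12 to 0.20, edgeR's adjusted p = 0.82). Kcnd2, the main pore of the current in mouse ventricle, was at 29.2 ± 1.67 CPM in training and 28.2 ± 3.23 CPM in sedentary hearts (log2 fold change 0.05, 95% confidence interval −0.10 to 0.21). Kcnd3, a related pore, was at 21.6, 20.1, 19.0, 21.4 and 18.3 CPM in training and 23.9, 21.9, 24.3, 26.7 and 20.3 CPM in sedentary hearts. Its means of 20.1 ± 1.45 and 23.4 ± 2.45 CPM gave a log2 fold change of −0.22 (SE 0.0734), above the threshold in edgeR (adjusted p = 0.114) and below it in DESeq2 (adjusted p = 0.0698). In edgeR Kcnd3 passed without sedentary heart 5 (adjusted p = 0.0638), without the filter, with the length trend removed and with the replicate block. Kcna4, the pore of the slowly recovering component, was low, with 29 to 78 counts in a heart, at 1.63 ± 0.340 CPM in training and 1.12 ± 0.297 CPM in sedentary hearts, with an interval of 0.11 to 0.97 (edgeR's adjusted p = 0.154), and it passed without sedentary heart 1.

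With all hearts, none of the tested genes of the rapid (3 of 8) and slow (3 of 5) delayed rectifier families passed in edgeR, none had an unadjusted p below 0.05 and DESeq2 called none. DESeq2 gave Kcnh1, Kcnh7 and Kcnq5 no adjusted p. The rapid and slow delayed rectifier currents end the action potential in large mammals and are small in adult mouse ventricle. Kcnh2, the rapid pore, was at 102 ± 4.14 CPM in training and 111 ± 10.2 CPM in sedentary hearts (log2 fold change −0.12, 95% confidence interval −0.24 to 0.01). Without sedentary heart 2 it passed (edgeR's adjusted p = 0.0995). Kcnq1, the slow pore, was at 45.7 ± 2.07 and 45.6 ± 5.21 CPM, with an interval of −0.14 to 0.15. Kcne1, its accessory subunit, was at 6.00 ± 0.923 and 5.96 ± 1.29 CPM, and its interval of −0.30 to 0.32 was wider. Of the 5 KCNE genes, 2 were tested and neither passed in edgeR or DESeq2, with 1 at an unadjusted p below 0.05.

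Among the acetylcholine-gated inward rectifiers 2 of 4 genes were tested, and Kcnj3 rose. Kcnj3 (ENSMUSG00000026824, GRCm39 chromosome 2, 55325801 to 55488157, forward strand) and Kcnj5 together form the acetylcholine-gated channel, through which the vagus slows the heart. Kcnj3 was at 180.2, 146, 194, 170.5 and 184 CPM in training and 156, 117, 127, 151 and 132 CPM in sedentary hearts. In 4 of the 5 training hearts Kcnj3 was above every sedentary heart, with training heart 2 inside the sedentary range. The means were 175 ± 17.96 and 137 ± 16.1 CPM, 27.9% higher in training, with a log2 fold change of 0.36 (SE 0.0838, 95% confidence interval 0.18 to 0.54, edgeR's adjusted p = 0.0379). On the length-corrected scale Kcnj3 was at 44.3 ± 5.07 TPM in training and 33.9 ± 4.19 TPM in sedentary hearts. The call held whichever heart was left out (adjusted p 0.017 to 0.0945). With the atrial score as a covariate, the log2 fold change was 0.16 (edgeR's adjusted p = 0.532).

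Kcnj5 (ENSMUSG00000032034, GRCm39 chromosome 9, 32223328 to 32255691, reverse strand) was at 112, 102, 121, 104 and 106.7 CPM in training and 103, 72.1, 103, 98.2 and 84.9 CPM in sedentary hearts. The ranges overlapped, with training hearts 2 and 4 near sedentary hearts 1 and 3, while sedentary hearts 2 and 5 were the lowest. Its means were 109 ± 7.58 and 92.3 ± 13.5 CPM and its log2 fold change 0.24 (SE 0.0874), which did not pass in edgeR (adjusted p = 0.144) and passed in DESeq2 (adjusted p = 0.0816). With the atrial score as a covariate it was 0.01 (edgeR's adjusted p = 0.978). Without sedentary heart 1 Kcnj5 passed (edgeR's adjusted p = 0.0799). The other 2 genes of this group were not tested.

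The strong inward rectifiers, which hold the resting potential, had 4 tested genes, none called by edgeR and 1 at an unadjusted p below 0.05. DESeq2 called none, but it gave Kcnj4 and Kcnj14 no adjusted p. Kcnj2, the main strong inward rectifier pore in ventricle, was at 53.0, 56.8, 45.5, 55.5 and 49.9 CPM in training and 51.7, 42.1, 47.4, 42.1 and 45.9 CPM in sedentary hearts. Most training hearts were above most sedentary hearts, with overlap, and the log2 fold change was 0.18 (95% confidence interval 0.04 to 0.33, edgeR's adjusted p = 0.159). With library totals alone Kcnj2 passed (edgeR's adjusted p = 0.0961), as it did without sedentary heart 1 (adjusted p = 0.0623). Kcnj12, its partner pore, was at 26.7 ± 1.77 CPM in training and 27.9 ± 2.44 CPM in sedentary hearts (log2 fold change −0.06, 95% confidence interval −0.20 to 0.08).

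The ATP-sensitive channel, which opens when the cell runs short of energy, is built from Kcnj11 or Kcnj8, both tested and neither called by edgeR or DESeq2, with 1 (Kcnj11) at an unadjusted p below 0.05. Kcnj11 was at 164, 159, 153, 166 and 160.0 CPM in training and 167, 166, 169.9, 178 and 175 CPM in sedentary hearts. The groups did not overlap, yet the difference was small, with a log2 fold change of −0.09 (95% confidence interval −0.17 to −0.01, edgeR's adjusted p = 0.182). On the TPM scale, which has no correction for composition, Kcnj11 was at 67.7 ± 3.59 in training and 67.3 ± 2.88 in sedentary hearts, with no difference in that direction. Kcnj8, the vascular form, was at 32.5 ± 2.67 CPM in training and 34.5 ± 2.72 CPM in sedentary hearts (log2 fold change −0.09, 95% confidence interval −0.23 to 0.06). Kcnj11 made up 81.5% of the summed TPM of these pores in both groups (SD 1.17 in training and 2.08 in sedentary hearts).

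**Figure D3:**
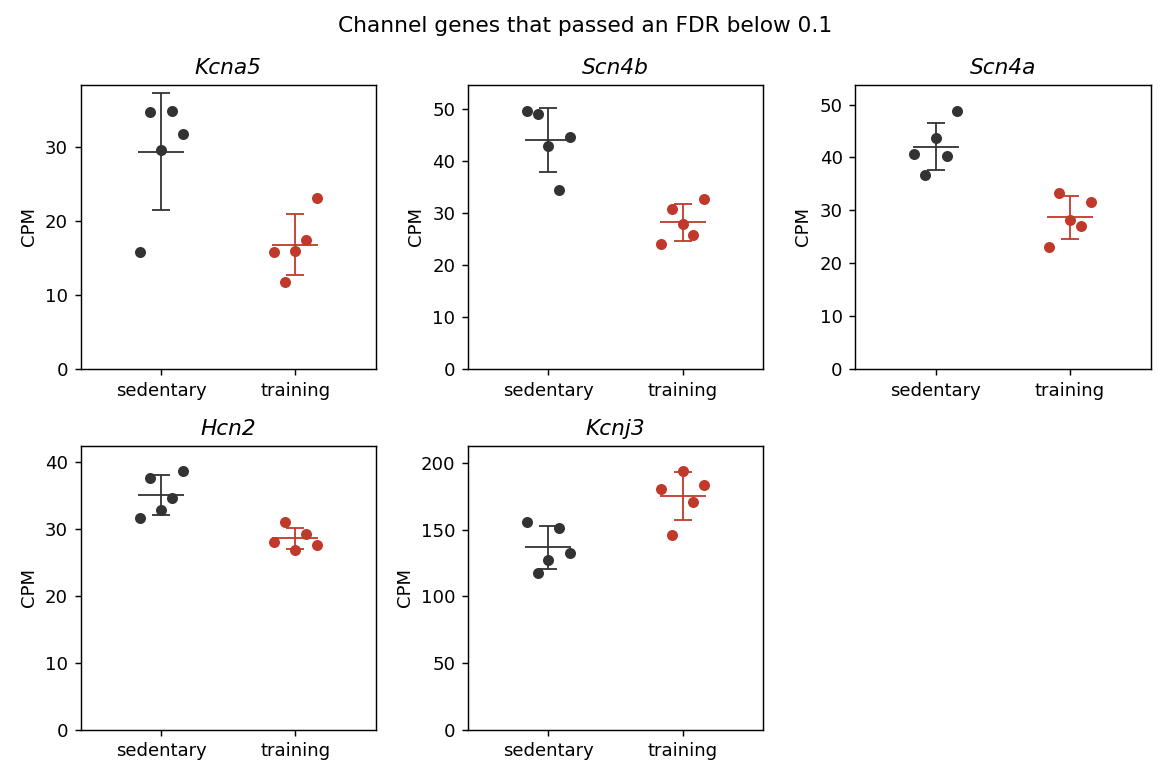
CPM in each heart (points) with the group mean and SD (bars) for Kcna5, Scn4b, Scn4a, Hcn2 and Kcnj3, all with an adjusted p below 0.1, with axes starting at 0. Groups do not overlap for Scn4b, Scn4a and Hcn2, 1 sedentary heart lies among the training hearts for Kcna5, and 1 training heart reaches the sedentary range for Kcnj3.

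Of the 14 tandem-pore background channel genes, which carry a steady outward leak, 6 were tested and none passed in edgeR, with 3 at an unadjusted p below 0.05. DESeq2 called none, but it gave Kcnk1 and Kcnk13 no adjusted p. Kcnk3 made up 96.7% ± 0.499 of the TPM of the 14 genes in training and 96.8% ± 0.0763 in sedentary hearts. It was at 321, 337, 324, 311 and 329.5 CPM in training and 334, 342, 347, 362 and 341 CPM in sedentary hearts. In 4 of the 5 training hearts it was below every sedentary heart, and the log2 fold change was −0.09 (95% confidence interval −0.17 to −0.01, edgeR's adjusted p = 0.203). The interval does not reach a change of the size seen for Scn4b or Kcna5.

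Among 12 calcium- and sodium-activated channel genes, 8 were tested, edgeR called none and DESeq2 called 1 (Kcnn1, singled out after its values were seen, adjusted p = 0.0915), with 1 at an unadjusted p below 0.05. Kcnn2, a small-conductance channel that is prominent in atria, was at 16.1 ± 0.990 CPM in training and 15.1 ± 1.43 CPM in sedentary hearts (log2 fold change 0.09, 95% confidence interval −0.06 to 0.24). Kcnma1, the large-conductance channel of smooth muscle, was low, at 0.909 ± 0.356 and 0.658 ± 0.188 CPM, with an interval of −0.11 to 1.05. Of the 10 silent subunits that modify other Kv pores, 4 were tested, none passed in edgeR and 2 had an unadjusted p below 0.05. DESeq2 called none, but it gave Kcns3 and Kcng4 no adjusted p. Kcns3, singled out after its values were seen, passed in edgeR with library totals alone and with the replicate block. It also passed without training heart 2 or without sedentary heart 4. Kcng2, the most abundant silent subunit, was at 112 ± 2.55 CPM in training and 114 ± 4.62 CPM in sedentary hearts, and its narrow interval of −0.11 to 0.05 leaves room only for a small difference. The other Kv group had 6 tested genes of 9, none called by edgeR, 1 called by DESeq2 and 2 at an unadjusted p below 0.05. Among the 5 other Kir genes 1 was tested and did not pass in edgeR or DESeq2, at an unadjusted p below 0.05.

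The largest fold change among channel genes that did not pass was that of Kcnk1, named after its values were seen. It had a log2 fold change of −1.28 (SE 0.47, edgeR's adjusted p = 0.15), and it passed without training heart 2 or without sedentary heart 5. It was at 0.0566, 0.372, 0.0803, 0.218 and 0.232 CPM in training and 0.373, 0.701, 0.479, 0.654 and 0.137 CPM in sedentary hearts, with as few as 2 counts in a heart. The median SE over tested channel genes was 0.138, against 0.0777 over all tested genes.

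Since many of these channels are built from several gene products, the balance within partners was compared as the log2 ratio of their counts in each heart, which does not depend on the scaling between hearts. A ratio of counts also holds the lengths of both transcripts, so only its difference between groups is read. Of the 7 ratios given here, none passed an adjusted p below 0.1 (two-sided exact permutation test over all assignments of the hearts to groups, smallest possible p 0.00794, Benjamini-Hochberg adjustment over the 8 ratios computed), and 1 had an unadjusted p below 0.05. Kcnd2 to Kcnd3, the main and the related pore of the transient outward current, had that p, at 0.51, 0.39, 0.64, 0.46 and 0.70 in the training hearts and 0.06, 0.37, 0.05, 0.29 and 0.54 in the sedentary hearts. The ranges overlapped, with means of 0.54 ± 0.126 and 0.26 ± 0.209, a difference of 0.28 (exact permutation p = 0.0476, adjusted p = 0.190). Hcn2 to Hcn4 differed by −0.29 (exact permutation p = 0.103, adjusted p = 0.206) and Kcnj2 to Kcnj12 by 0.24 (exact permutation p = 0.0794, adjusted p = 0.206).

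The ratio of Kcnj3 to Kcnj5 was 0.67 ± 0.0962 in training and 0.57 ± 0.153 in sedentary hearts (exact permutation p = 0.270, adjusted p = 0.432). A difference between these partners was therefore not shown, although Kcnj3 passed edgeR's test and Kcnj5 did not. Kcnip2 to Kcnd2 (2.41 ± 0.159 and 2.42 ± 0.0963), Kcne1 to Kcnq1 (−2.94 ± 0.166 and −2.95 ± 0.258) and Kcnj11 to Kcnj8 differed by less than their spread (exact permutation p = 0.889, 0.905 and 0.968).

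**Figure D4:**
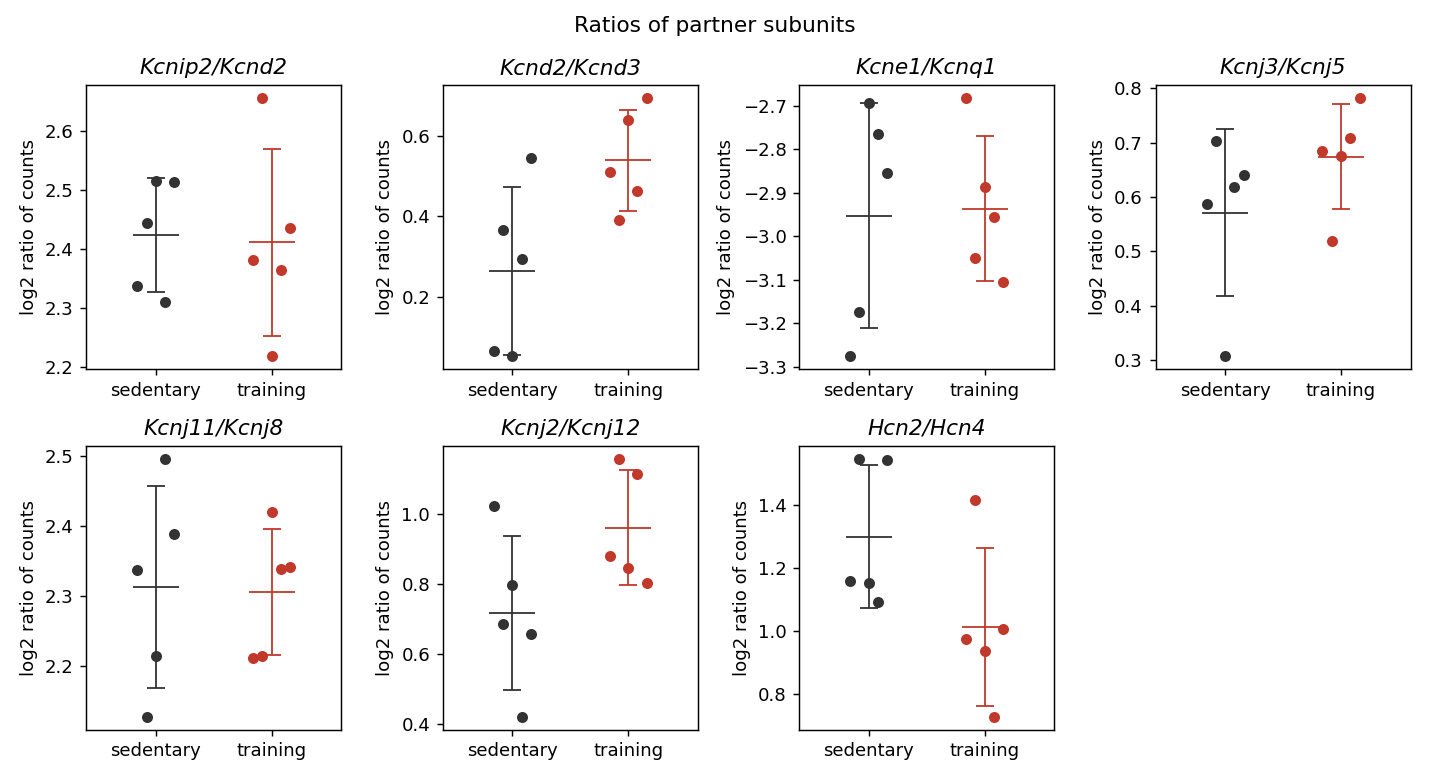
Log2 ratio of the counts of partner subunits in each heart (points) with the group mean and SD (bars). The axes do not start at 0, and the groups overlap in every panel.

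Channel subunits outside the naming rule and the transcription factors of the conduction system were taken from lists. Of 20 channel partners (sulphonylurea receptors, connexins and the like), 18 were tested, none rose and 1 fell. The median over the 18 was 0.0089, with 9 above and 9 below 0. Of 12 transcription factors 11 were tested, 1 rose and 1 fell. Etv1, a factor of fast-conducting atrial and Purkinje cells, was at 16.8, 12.9, 16.3, 15.3 and 15.8 CPM in training and 12.3, 11.7, 11.7, 12.4 and 11.1 CPM in sedentary hearts. Etv1 was higher in every training heart than in any sedentary heart, with a log2 fold change of 0.38 (SE 0.0693, edgeR's adjusted p = 0.0161). Irx3, a factor of the ventricular conduction system, was lower, at 37.6 ± 4.35 CPM in training and 44.5 ± 3.43 CPM in sedentary hearts, with a log2 fold change of −0.25 (SE 0.0765, edgeR's adjusted p = 0.0957).

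Some markers of the atria and some clock genes also differed between the groups. The atrial score, the mean centred log2 level of the 12 atrial markers, was 0.205, 0.065, 0.422, 0.372 and 0.145 in training hearts 1 to 5 and 0.248, −0.667, −0.168, −0.040 and −0.582 in sedentary hearts 1 to 5. The atrial markers that passed the test were Sln (log2 fold change 0.75), Dkk3 (0.73) and Stard10 (0.48), and the median over the 12 was 0.47. With that score as a covariate none of the 67 channel genes passed in edgeR (11 had an unadjusted p below 0.05, DESeq2 was not run with the covariate), as against 65 of all 15454 genes (0.42%), while the log2 fold changes were −0.58 for Scn4b, −0.49 for Scn4a, −0.45 for Kcna5, 0.16 for Kcnj3 and −0.15 for Hcn2. The score itself divided 9 of the 10 hearts by group. For Kcna5, sedentary heart 1 was both the lowest sedentary heart in level and the highest in score. Of 15 clock genes, 6 rose and 3 fell (Bmal1 by 1.19, Npas2 by 0.47 and Clock by 0.30 on the log2 scale). Because the atrial score divided the hearts largely by group, the fit with it cannot tell atrial tissue from training. The part of atrial tissue in the channel results was therefore not tested, and that of the clock genes was not tested.

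**Figure D5:**
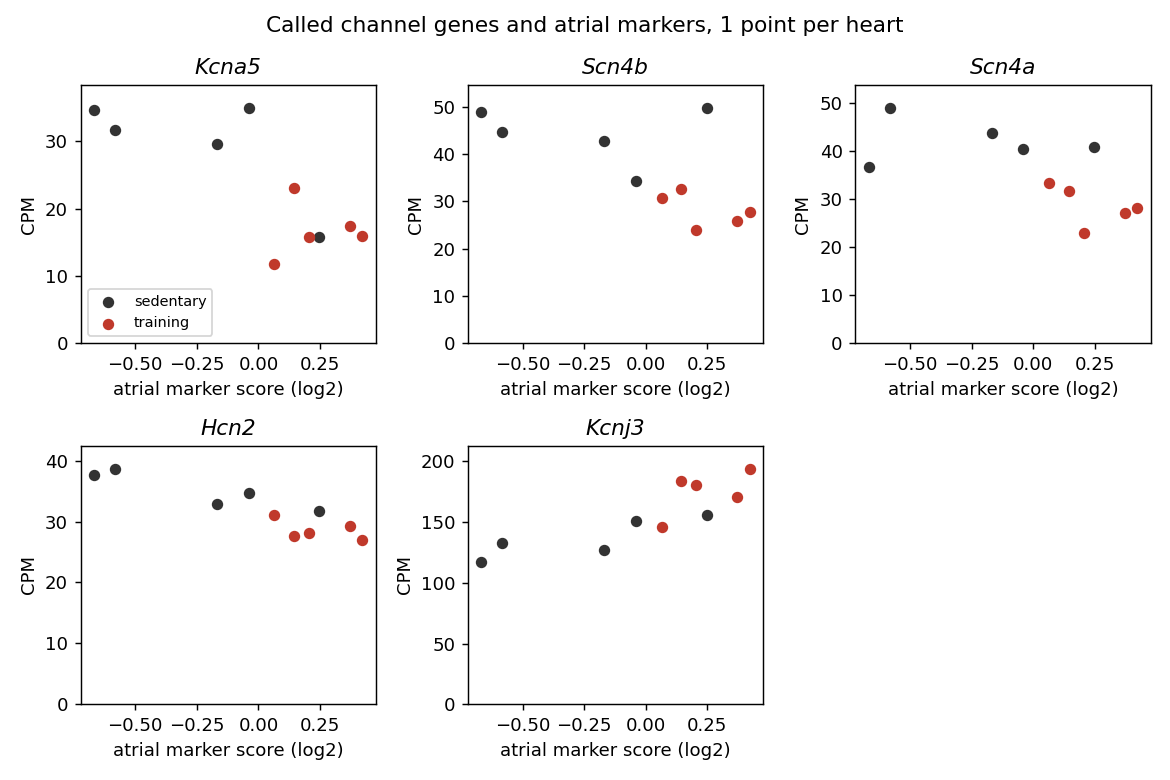
Level of Kcna5, Scn4b, Scn4a, Hcn2 and Kcnj3 in CPM (y axis) against the atrial marker score (x axis, mean centred log2 level) in the 10 hearts (dark, sedentary; red, training). The training hearts lie between 0.065 and 0.422 and sedentary heart 1, at 0.248, is the only sedentary heart among them.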

How the data were processed

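Poly-A RNA of 10 whole hearts (5 training, 5 sedentary) was made into strand-specific libraries, which were pooled and sequenced single-ended. The authors aligned the reads with STAR 2.7.10a to GRCm39 and quantified them with RSEM 1.3.3. The deposited STAR tables hold raw read counts per gene, of which the reverse-strand counts were used, and the deposited RSEM tables hold expected counts and TPM. Expected counts were rounded for an alternative fit, and TPM was used for levels.

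Members and lists were chosen with earlier results of these data known. Genes passing edgeR's filterByExpr (version 4.0.16) were scaled by TMM and compared by its quasi-likelihood test, with Benjamini-Hochberg adjustment over all 15454 genes and a threshold of 0.1. CPM refers to TMM-corrected library sizes. The study's methods use DESeq2, run here as an alternative (version 1.42.0). Some tested genes, Kcns3 and Kcnk1 among them, got no adjusted p from DESeq2 and were counted as not called. The test was checked on simulated counts. Ratios had 0.5 added to each count. Named are the called genes, 24 principal subunits of the cardiac currents and the 5 genes with the highest mean TPM, apart from some genes that are not reported here singly but are in every count over all genes. The labels gave no litter or day for the heart numbers. Residuals of same-numbered hearts correlated from −0.097 to 0.159, so the numbers were not used as pairs. In both groups, however, principal component 2 of the log2 levels (14.5% of the variance) was above 0 in hearts 1 to 3. It was below 0 in hearts 4 and 5. What this split by number stands for was not tested. Pairs of hearts within a group differed by more than counting error (chi-square per degree of freedom 6.02 to 27.8). Columns of each file belong to 1 sample. No adjustment for chamber was possible from the labels, and the time of day of sampling is not given in the sources used here.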

Additional observations from a re-analysis of the deposited data

Results flagged for a closer look

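Of the 58 groups of 5 hearts examined (named genes and ratios in each group), 1 held a heart far from the other 4, where chance gives about 1 in 20 groups. Kcna5 in sedentary heart 1 was at 15.8 CPM, while the other sedentary hearts were between 29.6 and 34.9 CPM. The gap to the nearest heart was 0.721 of the range of the group, against a critical value of 0.71 for 5 samples. Sedentary heart 1 also had the highest atrial marker score of the sedentary hearts (0.248), and the part of that score in the Kcna5 value was not tested.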

How the results depend on the processing

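Of the 6 channel genes called, Kcnj3, Scn4b, Scn4a, Hcn2 and Kcna5 kept their calls without any heart in turn. Without a heart, 5 to 11 channel genes were called, 1 to 4 higher and 4 to 7 lower. These were 7.35% to 16.2% of the tested channel genes, against 3.29% to 9.58% of all tested genes. DESeq2 called 10 channel genes, 2 higher and 8 lower, 14.9% against 9.53%. Both of these shares count genes that DESeq2 gave no adjusted p as not called. Library totals alone gave 5 higher and 4 lower, 13.4% against 8.85%. Without the filter 9 were called (2 higher), 8.74% against 3.55%. With the length trend removed 9 were called (8 lower), 13.4% against 7.34%. The atrial score as a covariate left 0 called, 0 higher and 0 lower (edgeR, 11 with an unadjusted p below 0.05), where 65 of all 15454 genes (0.42%) were called. At an adjusted p below 0.05, 5 were called, 7.46% against 3.27% of all genes. A replicate block on the heart numbers, which the residuals did not show to be pairs, gave 9 called, 3 higher and 6 lower. These were 13.4% against 7.36% of all genes, with Kcnd3, Kcnj5 and Kcns3 added. DESeq2's size factors, the RSEM expected counts, counts of both strands, leaving out mitochondrial DNA and thinning to the smallest library each gave 6 called, 1 higher and 5 lower. Their shares were 8.82% to 9.52% against 6.21% to 6.89% of all genes. The median log2 fold change ran from 0.0085 to 0.069 over the other alternatives and from −0.0016 to 0.049 without a heart.

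Several small values that did not pass changed sign. With library totals alone, Kcng2 was 0.027. Hcn4 was −0.0090 without the filter, −0.00095 from RSEM counts, −0.0013 from both strands, −0.033 with the length trend removed, −0.021 after thinning, −0.0050 with the replicate block and −0.17 with the atrial score. Kcnq1 was −0.0059 without the filter and −0.019 with the length trend removed. The atrial score gave 0.015 for Kcnj8. Without a heart, the log2 fold change ranged over −0.086 to 0.066 for Hcn4, −0.033 to 0.071 for Kcnq1, −0.083 to 0.11 for Kcne1 and −0.019 to 0.082 for Kcnip2. Of 286 values of single genes under other alternatives 261 kept direction and side of the threshold, as did 202 of 220 without a heart.

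Without a heart, differences of log2 ratios ranged over −0.074 to 0.035 for Kcnip2 to Kcnd2, −0.065 to 0.081 for Kcne1 to Kcnq1, −0.054 to 0.039 for Kcnj11 to Kcnj8, 0.22 to 0.35 for Kcnd2 to Kcnd3, 0.17 to 0.32 for Kcnj2 to Kcnj12 and −0.39 to −0.22 for Hcn2 to Hcn4. The latter 3 passed in some of these (lowest adjusted p by exact permutation 0.0635, 0.0952 and 0.0952). Other alternatives changed no ratio's direction or call. The cause of these changes was not tested. Kcnma1, with 16 to 56 counts in a heart, had a wide interval of −0.11 to 1.05, so both no difference and a rise of up to 1.05 on the log2 scale lay within it.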

Other observations

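Markers of other cells of the heart were measured beside the channel genes. All 7 fibroblast markers had a log2 fold change above 0, and 2 rose (Pdgfra and Lum). Their summed level was 1177 to 1450.4 CPM in training and 1018 to 1240.2 CPM in sedentary hearts. Of 8 mural cell markers 2 rose (Tagln and Cnn1) and 1 fell (Rgs5), and of 8 endothelial markers 1 fell (Tie1). Of 10 cardiomyocyte markers 9 had a log2 fold change below 0, and 1 fell (Actc1). Of 10 Schwann cell and neuron markers 7 were tested, all had a log2 fold change above 0 and none passed in edgeR (3 had an unadjusted p below 0.05), with a summed level of 19.9 to 26.5 CPM in training and 16.4 to 22.6 CPM in sedentary hearts. The part of these cells in the channel results was not tested.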
